A study of Homo sapiens with 2 samples.

Results

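The eCLIP peak list of NUDT21 in J-Gamma1 cells held 1488 peaks of low pileup inside first introns, and these peaks are described here. The peaks were selected on a low Score, the deposited height of the peak: a peak was taken when its Score was under 1.1, when its midpoint lay in no annotated exon, and when that midpoint fell in the first intron of a protein-coding transcript. For each gene the transcript with the longest coding sequence gave the introns, in GENCODE 44. The 1488 peaks were 7.26% of the 20499 deposited peaks (exact Clopper-Pearson 95% interval 6.91 to 7.62) and 12.6% of the 11822 peaks with a Score under 1.1. They lay in 1092 genes.

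J-Gamma1 is a derivative of Jurkat, a human cell line established from T-cell acute lymphoblastic leukemia (T-ALL). The series was made to find where NUDT21 contacts RNA in these cells, and it held 1 NUDT21 antibody library and 1 input library of the same line, with no genetic change or drug named in the labels for either. Cells were crosslinked with UV-C light, RNA was cut with RNase I, and the antibody library gave the peak list used here, while the input library was not analysed here. With 1 library and no replicate there is no measure of spread between samples, so every interval below covers counting error only and no p-value was computed. The read totals are unknown. Of 8 T-cell marker genes, CD3E, CD247, ZAP70 and PTPRC held a peak and the other 4 did not. None of 3 B-cell and 3 myeloid markers held one. The peaks of CD3E, CD247 and PTPRC included exonic ones and that of ZAP70 did not. For scale, 23.6% of all protein-coding genes with an intron held an exonic peak. The exact interval for 0 of 3 reaches 70.8%, so these counts do not tell cell types apart. A peak list shows contacts of the recovered RNA and is not a measure of expression.

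NUDT21 is the small subunit of cleavage factor I, which binds UGUA in nascent RNA and helps to choose where a transcript is cut and polyadenylated. The cut itself is directed by a polyadenylation hexamer, most often AAUAAA. Introns hold many copies of both elements. The U1 small nuclear ribonucleoprotein (snRNP), which pairs with the 5' splice site, also holds back cleavage inside introns. The first intron is often the longest of a gene and starts close to the promoter, where many genes have a GC-rich CpG island.

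Sequences of a few peaks show what these regions hold. They are given as the hg38 reference on the strand of the gene, 5' to 3', in DNA letters, with T in place of U. Each TGTA is in capitals, and so is each polyadenylation hexamer AATAAA. The first set holds peaks in which AATAAA closely followed TGTA, which is the order of elements at a typical polyadenylation site. No printed peak was longer than 251 nt, and longer peaks may hold closer copies. A match is only a match of letters, since the list has no strand and cleavage was not measured.
GNAQ chr9:78025066-78025316 (minus strand): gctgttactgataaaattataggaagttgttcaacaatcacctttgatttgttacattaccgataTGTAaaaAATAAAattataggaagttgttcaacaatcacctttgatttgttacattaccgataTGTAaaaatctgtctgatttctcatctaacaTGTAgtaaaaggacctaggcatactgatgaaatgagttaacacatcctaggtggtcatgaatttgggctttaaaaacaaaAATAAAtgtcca
RUNX1 chr21:35026190-35026255 (minus strand): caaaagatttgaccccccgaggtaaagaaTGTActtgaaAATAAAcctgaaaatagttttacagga
SLC25A21 chr14:37128035-37128228 (minus strand): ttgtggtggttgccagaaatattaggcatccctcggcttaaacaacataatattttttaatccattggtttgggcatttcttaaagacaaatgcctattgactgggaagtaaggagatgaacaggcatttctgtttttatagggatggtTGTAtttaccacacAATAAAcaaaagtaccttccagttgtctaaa
MEX3C chr18:51190985-51191195 (minus strand): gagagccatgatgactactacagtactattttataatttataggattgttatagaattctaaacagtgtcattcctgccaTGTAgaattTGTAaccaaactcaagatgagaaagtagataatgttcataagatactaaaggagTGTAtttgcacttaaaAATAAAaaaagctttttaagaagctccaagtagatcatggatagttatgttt

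In these 4 peaks the gap between both elements was 3 nt in GNAQ, 6 nt in RUNX1, 10 nt in SLC25A21 and 12 nt in MEX3C. GNAQ encodes a G protein alpha subunit, RUNX1 a transcription factor of blood cell development, SLC25A21 a mitochondrial carrier and MEX3C an RNA-binding ubiquitin ligase. The GNAQ peak, at a Score of 0.68, held 3 TGTA and 2 AATAAA, and a run of 63 nt occurs in it more than once. The other 3 peaks were at the lowest Score, 0.23. They lay 5.91 kb (GNAQ), 22.6 kb (RUNX1), 44.1 kb (SLC25A21) and 5.48 kb (MEX3C) from the 5' splice site.

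The peak nearest to a 5' splice site was in ZRSR2, a splicing factor gene, with its midpoint 2 nt inside the intron and 55 nt from the transcription start. Its intronic bases are shown, with the first 6 nt of the intron in capitals; they held no TGTA and no AATAAA, and their GC content was 62.2%.
ZRSR2 chrX:15790537-15790663 (plus strand): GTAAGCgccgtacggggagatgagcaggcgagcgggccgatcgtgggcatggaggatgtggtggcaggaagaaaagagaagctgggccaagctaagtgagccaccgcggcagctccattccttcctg

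The third set is a pair of peaks of equal length in the first intron of RUNX1, shown because many of the peaks came in such pairs. Both were 164 nt long at the lowest Score, and neither held TGTA or AATAAA on the gene strand, so no base is in capitals. The longest run that occurs more than once is 5 nt in one and 8 nt in the other.
RUNX1 chr21:34922195-34922358 (minus strand): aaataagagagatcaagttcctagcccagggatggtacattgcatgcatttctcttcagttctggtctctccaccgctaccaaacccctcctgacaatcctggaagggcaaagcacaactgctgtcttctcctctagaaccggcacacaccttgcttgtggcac
RUNX1 chr21:34922671-34922834 (minus strand): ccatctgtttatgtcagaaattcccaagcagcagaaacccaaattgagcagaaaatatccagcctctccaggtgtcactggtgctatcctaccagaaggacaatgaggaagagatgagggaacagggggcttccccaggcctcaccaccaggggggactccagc

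The Score that chose the peaks is a pileup that rises in whole steps of about 0.23. Of the 1488 peaks, 1068 (71.8%) stood at 1 step, 298 (20.03%) at 2, 89 (5.98%) at 3 and 33 (2.22%) at 4. The deposited false discovery rate was 1 for all of them, the p-value of 1456 (97.8%) was the same 0.0469, and fold enrichment ran from 1.172 to 1.83. Just inside the limit, the 33 peaks at 4 steps had a median length of 322 nt. Just outside it, 21 first intron peaks at 5 steps had a median length of 213 nt, and all 116 first intron peaks above the limit had a median of 57.5 nt. The limit on steps follows from the rule and describes it, while length, p-value and FDR were not used by the rule. The paper gives a q-value cutoff for its peak calling, and the deposited FDR of these peaks lies above it. Why this is so was not tested. The peaks were 48 to 500 nt long. Their median length was 257 nt, against 273 nt for 708 low-pileup peaks in later introns of the same genes.

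Most of the 1092 genes held 1 such peak. A total of 821 genes (75.2%) had 1, 201 had 2, 43 had 3 and 27 had 4 or more. Genes with a low-pileup first intron peak were 5.88% of the 18567 protein-coding genes with an intron, and 12.1% (306 of 2533) of those that also carried an exonic peak with a Score of 1.1 or more. An exonic peak of any Score was present in 46.2% of the 1092 genes (43.3 to 49.3), against 23.6% of all genes, and a 3'UTR peak in 29.2% (26.5 to 32.0) against 14.6%. A low-pileup later intron peak was found in 35.0% of the 1042 genes with 2 or more introns, against 16.0% of all such genes. In 394 genes (36.1%) the first intron peaks were the only peaks in the gene body. Genes with a first intron peak thus carried other peaks more often than genes at large. Their first introns were also longer, as given next, and the part of gene length or expression in this was not tested.

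First introns in this set were long. Their median length was 14.7 kb, against 3.46 kb over all genes. The share of genes with a peak rose with the length of the first intron, from 1.29% (0.994 to 1.66) for introns of up to 1 kb to 3.12% between 1 and 5 kb, 8.32% between 5 and 20 kb, 12.2% between 20 and 50 kb and 17.6% (15.6 to 19.9) above 50 kb. The number of peaks per base ran the other way, from 29.9 per Mb in the shortest class to 2.65 per Mb in the longest.

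**Figure D1:**
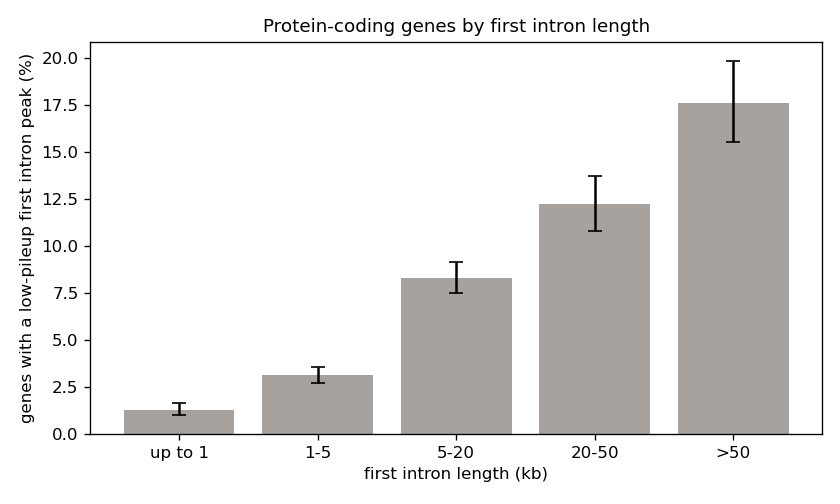
Share of protein-coding genes whose first intron held at least 1 low-pileup peak (vertical axis, %), by first intron length in kb (horizontal axis). Bars are shares and error bars are exact 95% intervals for counting error; the share rose from 1.29% to 17.6% over the 5 length classes.

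Within the first intron the peaks gathered towards its start. The median midpoint lay 4.08 kb from the 5' splice site (quartiles 0.672 and 16.1 kb) and 9.14 kb from the 3' splice site, and the median relative position was 32.6% of the intron. In the later introns of the same genes the median distance was 1.87 kb from the 5' splice site and the median relative position 44.6%, in introns that were shorter (median 5.75 kb against 18.3 kb for the introns around the first intron peaks). Of the 1488 peaks, 475 (31.9%) lay within 1 kb of the 5' splice site and 242 (16.3%) within 1 kb of the 3' splice site. There were 207 peaks (13.9%) within 500 nt of any annotated start of their gene, and 181 (12.2%) touched an exon while their midpoint did not.

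To compare first with later introns, low-pileup peaks were counted per base of intron outside exons. In the genes chosen for a first intron peak the density was 40.0 per Mb in first introns and 9.76 per Mb in later ones, a ratio of 4.10 (3.74 to 4.49). That ratio is raised by the choice of genes, since each had to hold a first intron peak and none had to hold a later one. Over all 17198 genes with 2 or more introns, where no such choice was made, the densities were 5.98 and 5.95 per Mb, a ratio of 1.00 (0.946 to 1.07). In the 2470 genes with an exonic peak of Score 1.1 or more, the densities were 15.2 and 17.7 per Mb and the ratio 0.858 (0.774 to 0.9499). The all-genes ratio rose above 1 beyond counting error under 3 alternatives. It was 1.09 (lower bound 1.01) at the lowest Score step, 1.21 (1.13 to 1.29) with whole peaks outside exons and 1.14 (1.06 to 1.23) without the first 1000 nt of introns. The whole-peak setting drops peaks that touch an exon while the intron bases stay the same. In the genes with a first intron peak, 18.8% of later intron peaks lay within 500 nt of the 3' splice site. For first intron peaks this was 8.20%. The setting may thus drop unequal shares of both kinds of peak, which was not tested. Its ratio cannot decide which introns were the denser. Whether first introns were the denser over all genes depended on the setting.

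The comparison depended on which distance was held equal. By distance from the 5' splice site, over all genes, first introns held 32.4 peaks per Mb within 0.5 kb and later introns 19.9, a ratio of 1.63 (1.40 to 1.89). Between 0.5 and 1 kb the densities were 40.0 and 18.6 per Mb (ratio 2.15, 1.86 to 2.47), and from 1 kb to 50 kb the ratio was between 1.31 and 1.54 in each of 3 classes, with intervals above 1. Beyond 50 kb it was 1.14 (0.899 to 1.45). By distance from the gene start the order turned. First introns held 5.23 peaks per Mb between 5 and 20 kb, a ratio to later introns of 0.497 (0.440 to 0.561), and the ratio was 0.375 (0.322 to 0.435) between 20 and 50 kb and 0.403 (0.331 to 0.487) beyond. Between 0.5 and 1 kb from the start the ratio was 1.30 (0.844 to 2.11) and between 1 and 5 kb it was 0.871 (0.739 to 1.03), both with intervals that include 1. Beyond 1 kb from the 5' splice site density fell with distance in both kinds of intron. In the genes with an exonic peak of Score 1.1 or more, the ratio by splice site distance was 1.74 (1.31 to 2.27) between 0.5 and 1 kb and 1.26 (1.01 to 1.56) between 1 and 5 kb. In the other 4 classes its interval included 1, with ratios of 1.33 (0.927 to 1.85) within 0.5 kb, 1.09 (0.892 to 1.32) between 5 and 20 kb, 0.959 (0.717 to 1.28) between 20 and 50 kb and 0.963 (0.631 to 1.45) beyond. By start distance the ratio in these genes was 0.666 (0.548 to 0.806), 0.467 (0.366 to 0.588) and 0.547 (0.388 to 0.751) in the 3 classes beyond 5 kb. At equal distance of over 5 kb from the start the later introns were thus the denser in both sets of genes. By splice site distance the first introns were the denser in 5 of 6 classes over all genes and in 2 of 6 in the smaller set. The classes do not hold the same genes for both kinds of intron, since only long first introns reach the far classes. Peaks per base were fewer in long first introns, as given above, and the part of this in the ratios and in the fall with distance was not tested.

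**Figure D2:**
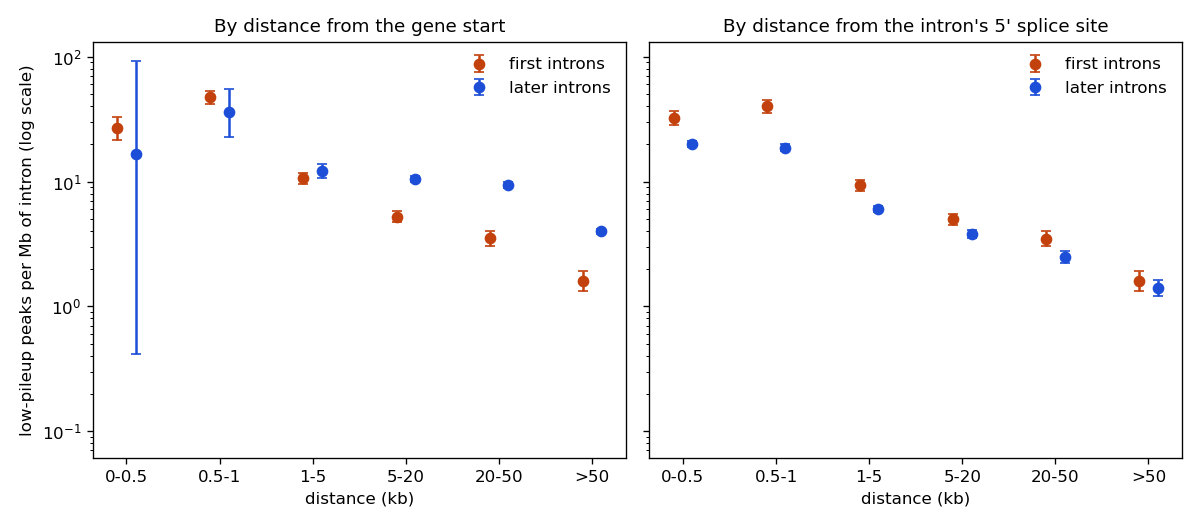
Low-pileup peaks per Mb of intron (vertical axes, log scale) in first and later introns of all protein-coding genes with 2 or more introns, by distance in kb from the gene start (left) and from the 5' splice site of the intron (right). Points are densities and error bars exact Poisson 95% intervals; first introns lie above later ones by splice site distance, with overlapping intervals beyond 50 kb, and below them beyond 5 kb by start distance, and the later intron point nearest the start rests on 1 peak.

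The first intron peaks were richer in GC than their surroundings. Their median GC content was 46.1%, against 41.5% for the later intron peaks of the same genes. Pooled over all bases, GC was 47.3% in the first intron peaks and 42.3% in the rest of the same first introns outside every peak, and CpG occurred at 22.9 per kb against 11.6 per kb. The difference was not the same along the intron. Among peaks within 1 kb of the 5' splice site GC was 53.9%, where the rest of that stretch had 54.8%, and CpG occurred at 43.7 per kb against 47.5. Beyond 1 kb GC was 44.3% in peaks and 41.99% in the rest, with CpG at 13.5 against 10.7 per kb. The peaks thus exceeded the rest in GC in the part beyond 1 kb and not in the first 1 kb. Peaks at 1 step and at 2 to 4 steps had the same pooled GC, 47.3%.

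**Figure D3:**
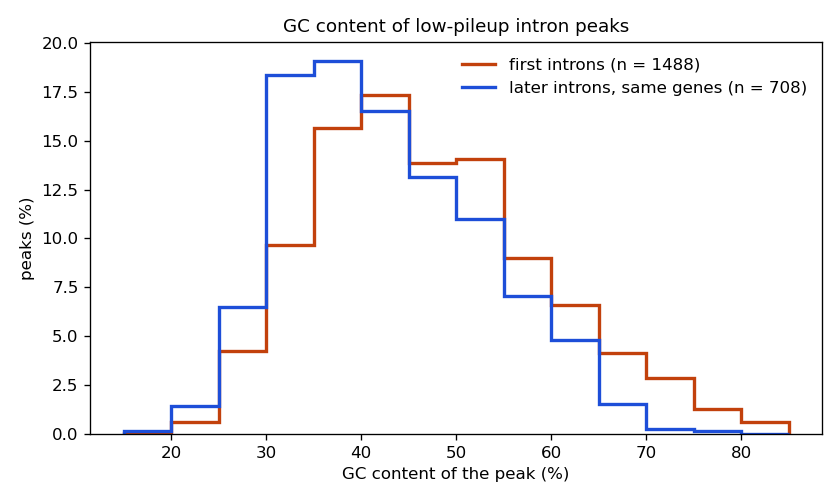
Distribution of GC content (horizontal axis, %) over low-pileup peaks in first introns (1488 peaks) and in later introns of the same genes (708 peaks), as a share of peaks per class (vertical axis, %). The first intron peaks are shifted to higher GC, with a median of 46.1% against 41.5%.

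UGUA, the element NUDT21 is known for, was counted in the 1482 peaks that lay in a first intron on 1 strand only. It occurred 1624 times on the gene strand (4.23 per kb, 4.03 to 4.44) and 1218 times on the opposite strand (3.17 per kb, 2.999 to 3.36), so the gene strand held 57.1% (55.3 to 59.0). In the rest of the same first introns the gene strand held 54.5%, in the later intron peaks of the same genes 54.2% (51.8 to 56.6) and in the rest of those later introns 54.2%. Within 1 kb of the 5' splice site it was 57.3% (53.3 to 61.2) in peaks and 58.4% in the rest, and beyond 1 kb it was 57.1% (55.0 to 59.2) in peaks and 54.5% in the rest. Peaks at 1 step gave 57.5% (55.3 to 59.6) and peaks at 2 to 4 steps 56.3% (52.8 to 59.8).

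The density of UGUA was not higher in the peaks than around them. On the gene strand the ratio of peaks to the rest of the same first introns was 0.838 (0.797 to 0.880), and on the opposite strand 0.753 (0.711 to 0.797). Beyond 1 kb from the splice site, where GC differed less, the ratios were 0.942 (0.891 to 0.995) and 0.846 (0.793 to 0.902), and within 1 kb they were 0.981 (0.876 to 1.096) and 1.03 (0.902 to 1.171). The later intron peaks gave 0.936 (0.877 to 0.999) on the gene strand and 0.937 (0.873 to 1.01) on the other. Of the 1482 peaks, 865 (58.4%, 55.8 to 60.9) held UGUA on the gene strand and 726 on the opposite strand. For scale, 70.4% of stretches of 257 nt in the rest of these first introns held it on the gene strand, although the peaks themselves varied in length.

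The polyadenylation hexamer AAUAAA was sparser in the peaks than around them. AAUAAA occurred 212 times on the gene strand and 333 times on the other, a gene strand share of 38.9% (34.8 to 43.1), against 40.0% in the rest of the same introns. Its density on the gene strand was 0.629 times that of the rest (0.547 to 0.720), 0.7495 times (0.643 to 0.869) beyond 1 kb from the splice site and 0.823 times (0.566 to 1.16) within 1 kb, where the interval included 1. The variant AUUAAA occurred 180 and 212 times on the gene and opposite strands. UGUA followed within 100 nt by AAUAAA or AUUAAA was found in 113 peaks (7.62%, 6.32 to 9.10) on the gene strand and in 119 (8.03%) on the opposite strand. The order of elements shown above for GNAQ, RUNX1, SLC25A21 and MEX3C was thus about as frequent on the opposite strand as on the gene strand, within counting error. In later intron peaks of the same genes the counts were 79 (11.2%) and 97 (13.7%). GUAAGU, a sequence that pairs well with U1, occurred 77 times on the gene strand, at 1.01 times the density of the rest (0.793 to 1.26).

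**Figure D4:**
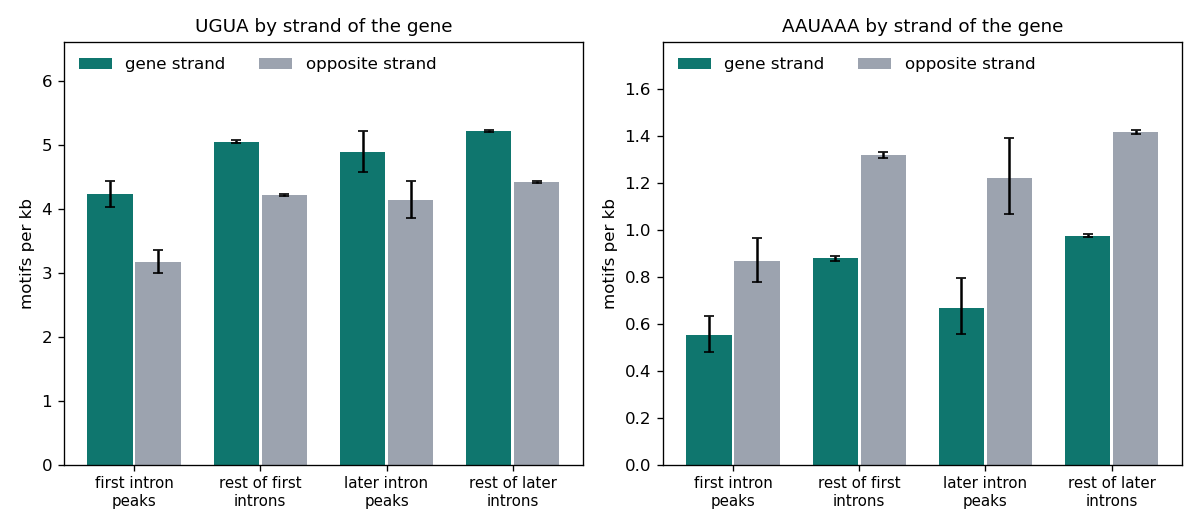
Occurrences per kb (vertical axes) of UGUA (left) and AAUAAA (right) on the gene strand and the opposite strand, in low-pileup first intron peaks, low-pileup later intron peaks of the same genes, and the rest of the same introns outside every peak. Bars are densities and error bars exact Poisson 95% intervals; both elements are sparser in the first intron peaks than in the rest of those introns.

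Many peaks came in pairs at a fixed distance. A total of 425 (28.6%, 26.3 to 30.9) had another deposited peak whose start lay exactly 1 spacing of 0.48 kb away, as the coordinates of the RUNX1 pair above show, while at 20 neighbouring distances at most 4 had one. Later intron peaks of the same genes paired at a similar rate, 235 of 708 (33.2%, 29.7 to 36.8), and first intron peaks above the Score limit less, 9 of 116 (7.76%, 3.61 to 14.2). There were 184 pairs of which both were low-pileup first intron peaks, spread over 168 genes, and 168 of the pairs (91.3%) had equal lengths. Of those 168, both peaks had the same number of steps in 92 (54.8%), the 5' peak on the gene strand was higher in 33 and the 3' peak in 43. No run of 3 peaks occurred at this spacing. What sets the spacing was not tested.

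RUNX1, a gene recurrently altered in T-ALL, held the most peaks. Its 15 peaks lay in a first intron of 156 kb at chr21:34892964-35048841 on the minus strand, from 14.2 to 135 kb from the 5' splice site. Their lengths ran from 66 to 412 nt and their GC content from 32.0% to 57.1%. They stood at 1 step in 6 cases and reached 4 steps in the peaks at 16.1 kb (412 nt, 5 UGUA) and 54.8 kb (311 nt, no UGUA). The latter was paired with a peak of the same length at 54.3 kb, at 1 step and with 4 UGUA. Of the 15 peaks, 10 had such a partner and 8 held UGUA on the gene strand, 22 copies in all. The later introns, 99.4 kb in total, held 9 low-pileup peaks. Per 100 kb this made 9.62 peaks in the first intron and 9.05 in the later introns, a ratio of 1.06 (0.436 to 2.76). The annotated gene held 50 peaks of any kind and extends upstream of the transcript used. Which intron counts as the first thus depends on the transcript chosen.

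ETV6, which encodes a transcriptional repressor, is another leukemia gene. Its 7 peaks lay between 22.8 and 58.5 kb into a first intron of 102 kb at chr12:11650161-11752449 on the plus strand, 5 of them at 1 step and the highest at 3 steps. A total of 6 had a partner and 4 held UGUA. The density was 6.84 per 100 kb, against 6.56 in the later introns (9 peaks in 137 kb), a ratio of 1.04 (0.330 to 3.15).

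The other 8 genes with most peaks were NEXMIF with 8, STT3B with 6, and TBC1D10A, MBP, STK10, PMEPA1, PDS5B and JAKMIP1 with 5 each. NEXMIF, a neuronal gene on the X chromosome, had 6 of its peaks within 2.27 kb of the 5' splice site and a pair at 44.1 and 44.6 kb in an intron of 179 kb. STT3B, the catalytic subunit of an oligosaccharyltransferase, had its peaks between 6.001 and 31.6 kb, of which 1 held UGUA, and no low-pileup peak in 57.5 kb of later introns. PDS5B, a cohesin regulator, had its 5 peaks between 22.2 and 42.1 kb and UGUA in 4 of them. STK10, a lymphocyte kinase, and TBC1D10A, a regulator of Rab GTPases, had all peaks at 1 step. PMEPA1, an inhibitor of TGF-beta signalling, and JAKMIP1, a microtubule-binding protein, had peaks between 8.89 and 45.9 kb and between 1.40 and 24.6 kb. The ratio of first to later intron density was 17.6 in STK10 (1.96 to 830) and 5.68 in MBP, the myelin basic protein gene (1.22 to 28.6). It was 4.90 in PDS5B (0.803 to 51.5), 1.61 in JAKMIP1 (0.313 to 10.3), 0.692 in PMEPA1 (0.0774 to 32.7) and 0.621 in TBC1D10A (0.134 to 3.13). The later introns held only 1 low-pileup peak in STK10 and in PMEPA1 and 2 in PDS5B, and NEXMIF and STT3B had none there. The 10 genes were picked for the number of their first intron peaks, which raises this ratio, so these values describe the genes and are no test.

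**Figure D5:**
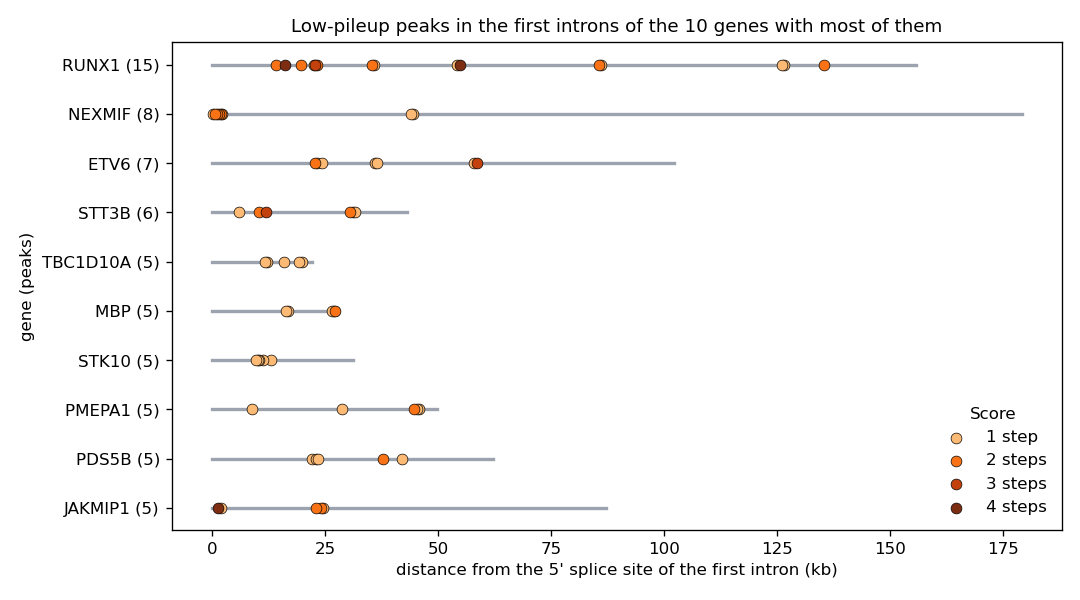
Positions of low-pileup peaks along the first intron, in kb from the 5' splice site (horizontal axis), for the 10 genes with most of them, with the number of peaks beside each name. Grey lines give the length of the intron and point colours the Score in steps; pairs at the fixed spacing overlap at this scale, and the peaks of RUNX1 are spread over 14.2 to 135 kb.

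Among the core cleavage and polyadenylation factors, 1 of 21 genes with a first intron held a peak. This was 4.76% (0.120 to 23.8), an interval that includes the 5.88% of all genes. The gene was RBBP6, a ubiquitin ligase of the cleavage machinery, with 1 peak at 1 step, 4.76 kb from the 5' splice site and with 3 UGUA. NUDT21 itself held none in its first intron of 3.10 kb. Among the genes of the U1 snRNP and its LUC7-like partners, 4 of 6 held a peak (66.7%, 22.3 to 95.7). This stands against 5.88% of all genes and 12.1% of those with an exonic peak of Score 1.1 or more. SNRPA and SNRPC, which encode U1 proteins, had 1 peak each, at 3 and 2 steps and at 5.14 and 2.12 kb. LUC7L2 had a pair of 271 nt peaks, both at 3 steps, at 6.12 and 6.60 kb, and LUC7L3 had 1 peak of 58 nt at 1 step. The list is short and was chosen with earlier results known. Its first introns had a median of 5.25 kb, above the 3.46 kb of all genes. That median lies in the length class of 5 to 20 kb, where 8.32% of all genes held a peak.

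Of 28 genes recurrently altered or active in T-ALL, 6 held a peak (FBXW7, RUNX1, ETV6, STAT5B, IKZF1 and BCL2), with 30 peaks in all, of which RUNX1 and ETV6 had 22. This was 21.4% of the list (8.30 to 41.0), against 5.88% of all genes and 12.1% of those with an exonic peak of Score 1.1 or more. The median first intron of the list was 4.235 kb. The first introns of FBXW7, RUNX1, ETV6, STAT5B and BCL2 were above 50 kb, a class where 17.6% of all genes held a peak. That of IKZF1 was 14.7 kb, and the part of intron length was not tested. FBXW7, a ubiquitin ligase that degrades NOTCH1, had 2 peaks at 1 step in an intron of 123 kb, both with UGUA. STAT5B, a cytokine signal transducer, had 3 peaks that reached 4 steps. IKZF1, a lymphoid transcription factor, had 1 peak in its first intron and 11 low-pileup peaks in its later introns, a ratio per base of 0.495 (0.0115 to 3.40). BCL2, an inhibitor of apoptosis, had a pair of 363 nt peaks at 16.6 and 17.1 kb, both with UGUA, in its only intron of 189 kb. In T-cell receptor signalling 3 of 17 genes (17.6%, 3.80 to 43.4) held 1 peak each, all at 1 step, against 5.88% of all genes. The first introns of this list were long, with a median of 21.7 kb, and 12.2% of all genes with a first intron between 20 and 50 kb held a peak. The 3 genes were the kinase PRKCQ at 47.1 kb, the ubiquitin ligase CBL at 0.592 kb and the exchange factor VAV1 at 0.659 kb.

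Of 35 genes of the UBE2 family of ubiquitin-conjugating enzymes, 5 (14.3%, 4.81 to 30.3) held a peak, against 5.88% of all genes. The median first intron of the family was 8.78 kb, in the length class of 5 to 20 kb where 8.32% of all genes held one. UBE2D3, on which the study centred, had 2 peaks in a first intron of 58.9 kb, at 7.53 kb (1 step, no UGUA) and 48.8 kb (3 steps, 4 UGUA). Its later introns held 5 low-pileup peaks in 12.02 kb, so the first intron was the sparser, at 3.40 against 41.6 per 100 kb (ratio 0.0817, 0.00778 to 0.499). UBE2L3 had 2 peaks close together at 18.8 and 19.2 kb, and UBE2F, UBE2G1 and UBE2O had 1 each at 1 step, at 0.833, 59.1 and 0.667 kb. Of other genes named in the study, UBE2N, UBE2J1, NUDT21, MYC, HMGA1, HMGB2 and CDK1 held no low-pileup first intron peak. Each of those 7 held at least 1 exonic peak. Among further genes that the study names, RUNX1, ETV6 and BCL2, described above, held a low-pileup first intron peak, while MYB, GATA3, CPSF4 and SSU72 did not.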

How the data were processed

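The authors trimmed reads with fastp, removed duplicates by molecular identifier, took out ribosomal reads, mapped to hg38 and called peaks with MACS2 on a single replicate. The aligner and the control of the peak calling are not given in the sources used here. The deposited fold enrichment is a ratio over local background, the deposited p-value and FDR are MACS2's, and the deposited Score behaves as a pileup signal, a unit inferred from its values. The list has no strand.

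Peaks were placed by midpoint against GENCODE 44, and motifs were counted on both strands of the hg38 reference. Introns came from the protein-coding transcript with the longest coding sequence. Densities leave out exons, and later introns also leave out first introns of other genes. In the classes of distance a peak or base in introns of several genes counted once for each. Peaks in first introns on both strands (6) were left out of strand counts. The fixed spacing was 476 nt. Shares have exact Clopper-Pearson and densities exact Poisson 95% intervals, for counting error only. Ratios use the exact binomial interval of both counts. Intervals over peaks treat both peaks of a pair as independent, and so may be too narrow. Peak numbers and densities of single genes count each peak of a pair. Depth is unknown. The members, gene lists and tests were chosen with earlier results of these data known. Named genes were the 10 with most peaks, list genes with a peak, and 8 genes named in the study. Printed sequences were 4 peaks in which AAUAAA closely followed UGUA, the peak nearest a 5' splice site and 1 pair. No peak longer than 251 nt was printed, and bases inside exons were not shown. Alternatives were the lowest Score step, whole-peak placement, the Ensembl canonical transcript, single gene bodies, spaced peaks counted once, other gene sets, introns without their first 1000 nt, the central 100 nt of peaks and both hexamers. The density ratio over all genes under these alternatives was added after seeing the data. Counting was tested on simulated data. Python 3.11.15, matplotlib 3.10.9, pysam 0.24.0, scipy 1.17.1, pandas 2.3.3 and numpy 2.4.6 were used.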

Additional observations from a re-analysis of the deposited data

How the results depend on the processing

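The ratio of low-pileup peak density in first over later introns depended most on the genes compared. It was 4.10 in genes chosen for a first intron peak, 1.00 over all genes and 0.858 in genes with an exonic peak of Score 1.1 or more. With the lowest Score step only, it was 5.62 in the chosen genes and 1.09 over all genes. With whole peaks outside exons it was 4.80 and 1.21, with a median distance of 4917 nt from the 5' splice site and a median GC content of 44.6%. Without the first 1000 nt of introns it was 4.69 and 1.14, with a median distance of 8888 nt and a GC content of 43.2%. Under these 3 settings the interval of the all-genes ratio lay above 1, where the main one included 1. The causes were not tested. By construction, leaving out the start of introns removes the nearest and most GC-rich peaks, and whole-peak placement removes peaks that touch exons. The other 35 recomputed values were counted as unchanged, those for the strand shares of UGUA and AAUAAA among them. They include the number of peaks, which has no interval. It was 1488 in the main setting and ran from 1068 (lowest Score step) to 1566 (Ensembl canonical transcript). Leaving out repeats was not run, because the reference used here does not mark them. No paired analysis was possible because there was 1 antibody library and no result came from a test between groups. With 1 library of unknown depth, the peaks at the lowest Score have no measure of reproducibility, and a gene without a peak may hold contacts that were not detectable.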
